A study of Homo sapiens with 10 samples.

Results

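The hypoxia and glycolysis genes described here are 40 genes, taken by symbol from a list of glycolytic enzymes, glucose and lactate transporters and targets of the hypoxia-inducible factors (HIFs), out of 57993 symbols in the deposited tables. Each of the 40 stood at exactly 1 locus, and 39 entered the tests. CA9, a cell-surface carbonic anhydrase that is a classical HIF target, was not tested, since its level lay between 0.0 and 0.24 in all 10 libraries. The cells were HCT116, a human colorectal carcinoma line, collected as GFP-positive cells 24 hours after transfection. Knockout cells, labelled KDM5A-/-, carried a plasmid for a mutant KDM5A in 2 libraries, a plasmid for wild-type KDM5A in 3 libraries and the empty vector in 3 libraries, and parental cells, labelled wild type, carried the empty vector in 2 libraries. The mutation is not named in the labels. Both cell stocks were bought from a supplier, and the culture medium of the knockout cells alone held G418, so that genotype, cell clone and G418 cannot be told apart between knockout and parental cells. The labels do not say whether replicates were separate cultures, so each p-value speaks to the spread between these libraries, which may be technical.

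Glycolysis splits glucose into pyruvate, and lactate dehydrogenase turns pyruvate into lactate, which leaves the cell through monocarboxylate transporters. When oxygen is present, the prolyl hydroxylases EGLN1 and EGLN3 mark the HIF alpha subunits HIF1A and EPAS1 for degradation, and when oxygen is low these subunits accumulate, bind DNA with ARNT and raise the transcription of glucose transporters, glycolytic enzymes and secreted factors such as VEGFA. KDM5A, a demethylase of lysine 4 of histone H3, belongs like the prolyl hydroxylases and the histone demethylase KDM3A to the dioxygenases that need iron, oxygen and 2-oxoglutarate.

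The HIF binding core is ACGTG or GCGTG, and it was searched on both strands of the 250 bases before each gene start in RefSeq promoters of GRCh38.p14, with overlapping matches counted as 1 site. Of the 40 genes 35 matched an entry, and SLC2A3, SLC16A1, VEGFA, BNIP3L and NDRG1 did not. A core stood in 23 of the 35 promoters, or 65.7%, against 43.2% of all 35116 promoters of the same length. Several entries existed for 12 of the 35 genes, yet each gene entered this count with 1 promoter. Whether genes with several entries weigh alike in both percentages was not tested. The genes were also chosen partly as HIF targets, so a higher percentage among them is no independent result, and the difference was not tested. Among the 15 matched genes that passed the test in any comparison 8 had a core, and among the 20 that passed in none 15 had one, a difference that was not tested. The promoters of 4 genes that the results below turn on are shown, with the cores in capitals and each strand read towards the gene. SLC2A1 (chr1:42958869-42959118, minus strand) had no core, GAPDH (chr12:6535014-6535263, plus strand) had 1 site, ADM (chr11:10304823-10305072, plus strand) had 1 site and BHLHE40 (chr3:4979187-4979436, plus strand) had 3 sites.
SLC2A1: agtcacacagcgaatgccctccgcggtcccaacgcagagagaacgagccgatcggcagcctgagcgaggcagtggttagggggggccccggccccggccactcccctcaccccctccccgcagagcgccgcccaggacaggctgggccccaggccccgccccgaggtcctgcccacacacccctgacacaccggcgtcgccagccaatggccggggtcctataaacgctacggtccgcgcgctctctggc
GAPDH: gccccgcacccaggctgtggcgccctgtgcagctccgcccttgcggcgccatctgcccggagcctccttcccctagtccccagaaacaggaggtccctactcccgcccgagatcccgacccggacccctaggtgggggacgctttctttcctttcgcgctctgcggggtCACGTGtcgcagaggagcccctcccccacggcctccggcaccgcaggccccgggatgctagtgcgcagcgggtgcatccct
ADM: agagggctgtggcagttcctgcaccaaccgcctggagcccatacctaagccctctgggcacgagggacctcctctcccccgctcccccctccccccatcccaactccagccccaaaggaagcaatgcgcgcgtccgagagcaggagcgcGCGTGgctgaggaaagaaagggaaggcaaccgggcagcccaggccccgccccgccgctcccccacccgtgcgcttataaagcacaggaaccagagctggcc
BHLHE40: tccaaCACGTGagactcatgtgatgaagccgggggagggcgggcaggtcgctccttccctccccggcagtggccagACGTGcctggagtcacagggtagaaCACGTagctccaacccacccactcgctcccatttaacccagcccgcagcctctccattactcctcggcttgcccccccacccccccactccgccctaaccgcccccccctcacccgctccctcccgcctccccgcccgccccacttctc
The GAPDH site, CACGTG, holds the core ACGTG on both strands and starts 81 bases before the RefSeq gene start. The RefSeq starts of GAPDH, ADM and BHLHE40 lie downstream of the starts of their loci in the deposited tables, so these windows fall inside the loci given below, and all distances are counted from the RefSeq start. The ADM site starts 101 bases before that start, and the BHLHE40 sites start 245, 174 and 149 bases before theirs. A match describes letters in the window and is no evidence of binding.

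All levels below are scaled linear values on the FPKM scale, which counts fragments per length of transcript, after division by 1 factor per library, and fold changes are log2 of (scaled value + 1). Genes whose limma p, after Benjamini-Hochberg adjustment over 17779 genes, was under 0.05 are said to pass. KDM5A itself, whose plasmid transcripts fall on the gene's value, stood at 23346 and 22816 with mutant KDM5A and at 13452, 16237 and 15598 with wild-type KDM5A, and at 12.2, 15.3 and 12.3 in empty-vector knockout libraries and 13.3 and 17.7 in parental libraries, so it checks the plasmids but does not set the knockout label apart from the parental one. The epithelial markers EPCAM, KRT8, KRT18, KRT19 and CDH1 were expressed, with a summed level of all 7 listed markers of 3834 to 5600, while CDH17 and VIL1 stayed under 0.45. Of 9 markers of other cell types 1 had a mean of at least 1, COL1A1 at 13.5 to 28.7, and CD3E, DCN and COL1A2 were at or near 0.

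The libraries did not all have the same make-up, and this bears on the abundant glycolytic genes. Protein-coding genes took 90.5% and 90.5% of the summed value in the mutant-KDM5A libraries and 89.7% in parental library 2, against 92.6% to 92.9% in the other 7 libraries. Ribosomal protein genes took 14.3% to 14.8% in those 3 libraries and 11.8% to 13.1% in the others. The 40 genes together took 1.35% to 1.45% of the summed value, of which the 15 glycolytic enzymes took 1.10% to 1.19%. The scaling factors were 0.84 and 0.87 for the mutant-KDM5A libraries and 0.96 to 1.11 for the rest. Before scaling, the median log2 fold change of all genes was -0.30 for mutant KDM5A over empty vector, -0.20 for mutant over wild-type KDM5A, -0.10 for wild-type KDM5A over empty vector and 0.08 for knockout over parental cells. After scaling each of these medians lay within 0.01 of 0, so the changes given here are relative to the typical gene of each comparison.

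Mutant KDM5A was first set against empty vector in knockout cells, which asks what the mutant protein changes, and 10 of the 39 genes rose and 2 fell, or 30.8%, where 16.5% of all tested genes passed (9.48% higher and 7.05% lower). The direction of this count turned with the scaling, since 1 gene rose and 18 fell with the values as deposited, and 1 rose and 8 fell under quantile normalization. After median-ratio scaling, those that rose were 7 glycolytic enzymes, the glucose transporter SLC2A1, the lactate dehydrogenase subunit LDHB and the stress gene NDRG1, and those that fell were VEGFA and BHLHE40. With the wild-type plasmid KDM5A averaged 15096, against 15.5 in parental cells, so this comparison does not restore the parental level. Wild-type KDM5A over empty vector raised 2 genes, SLC2A1 and NDRG1, or 5.13% against 4.54% of all genes (2.52% higher and 2.02% lower). None fell with it in limma. At an unadjusted p under 0.05, which 20.5% of all genes reached, GPI, ALDOA, PGK1 and PKM were also higher. PDK1, EGLN3, VEGFA and BHLHE40 were lower at such a p. GPI was the nearest to passing (limma adjusted p = 0.051, n = 3 each). In knockout over parental cells, both with empty vector, 3 genes rose (SLC2A1, ADM and BHLHE40) and 4 fell (ENO2, HK1, ALDOC and PFKM), or 17.9% against 8.94% (4.84% higher and 4.09% lower). None of the 39 passed between mutant and wild-type KDM5A, where 0.0562% of all genes passed. The groups did not overlap for 27 of the 39 genes with mutant KDM5A over empty vector (46.9% of all genes), for 19 with wild-type KDM5A over empty vector (32.6%) and for 23 in knockout over parental cells (42.4%). The first 3 comparisons share the empty-vector knockout libraries, so their values are set side by side and not counted as separate evidence. The median log2 fold change of the 39 genes was 0.08 for mutant KDM5A and 0.08 for wild-type KDM5A over empty vector, and -0.04 for knockout over parental cells. In bulk RNA, fewer cells that express a gene and less of its RNA per cell cannot be told apart.

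**Figure D1:**
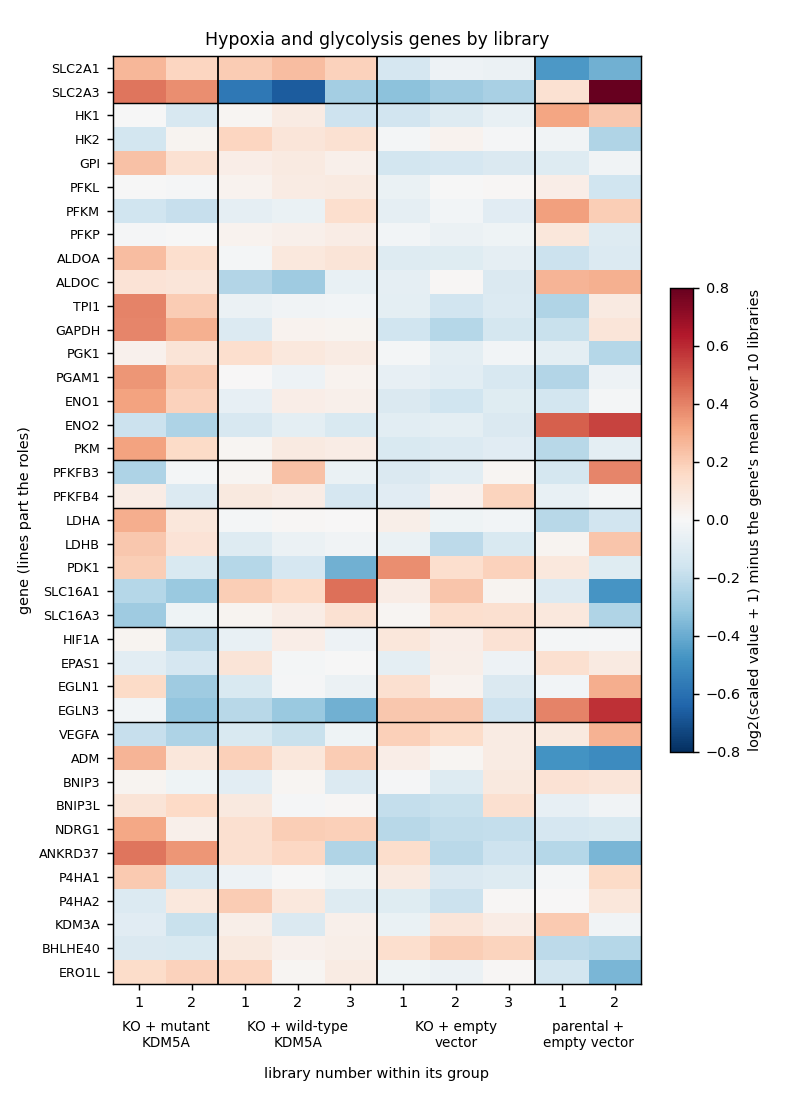
Level of each of the 39 tested genes (rows, in order of role) in each of the 10 libraries (columns), as log2(scaled value + 1) minus the gene's mean over the libraries, with values beyond the scale shown in its end colours. SLC2A1 and ADM are lowest in the parental libraries and ENO2 is highest there, while GAPDH, TPI1, PGAM1 and ENO1 are highest in the mutant-KDM5A libraries after median-ratio scaling, with GAPDH, TPI1 and ENO1 below empty vector under quantile normalization.

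SLC2A1, the glucose transporter GLUT1 (chr1:42925381-42958859, minus strand), was the gene that passed in the most comparisons. Its level was 130.3 and 121.7 with mutant KDM5A, 124.5, 128.3 and 122.9 with wild-type KDM5A, 98.3, 105.0 and 104.5 with empty vector in knockout cells, and 78.4 and 82.4 in parental cells. The plasmid groups overlapped each other and lay above the empty-vector knockout libraries, and those lay above the parental libraries. Knockout cells exceeded parental cells by 0.35 ± 0.06 on the log2 scale (SE, n = 3 and 2, limma adjusted p = 0.00736), a ratio of means of 1.28. Wild-type KDM5A exceeded empty vector by 0.29 ± 0.05 (SE, n = 3 and 3, limma adjusted p = 0.0174), and mutant KDM5A did so by 0.29 ± 0.06 (SE, n = 2 and 3, limma adjusted p = 0.0112), although the unscaled mutant difference was -0.04 against a median gene at -0.30. The call with wild-type KDM5A was lost without any 1 of the 6 libraries compared (limma adjusted p up to 0.0828). It was also lost with the values as deposited and with the replicate number as a block. Without mutant-KDM5A library 1 the mutant difference was 0.24, and that call was lost. The mutant call was lost too as deposited, under quantile normalization, with the same block and with the protein-coding share as a covariate. The call in knockout over parental cells was lost only in the fit of those libraries alone.

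SLC2A3, the transporter GLUT3, was low, at 1.97 and 1.86 with mutant KDM5A, 0.49, 0.39 and 0.83 with wild-type KDM5A, 0.76, 0.81 and 0.84 with empty vector in knockout cells, and 1.40 and 5.09 in parental cells. No comparison passed for it. Its 3 named pseudogene loci reached a summed value of 936% of its own in 1 library, so its level is uncertain.

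The glycolytic enzymes were among the most abundant transcripts measured. GAPDH, the dehydrogenase of the middle of the pathway (chr12:6533927-6538374, plus strand), was the highest of the 40 genes, at 4914 and 4550 with mutant KDM5A, 3474, 3813 and 3805 with wild-type KDM5A, 3347, 3197 and 3389 with empty vector in knockout cells, and 3303 and 4004 in parental cells. Mutant-KDM5A libraries lay above every other library, and the wild-type-KDM5A libraries lay above the empty-vector knockout libraries without overlap. With mutant KDM5A over empty vector GAPDH rose by 0.51 ± 0.09 on the log2 scale (SE, n = 2 and 3, limma adjusted p = 0.00939), a ratio of means of 1.43, whereas quantile normalization put it at -0.05. Wild-type KDM5A over empty vector gave 0.16 ± 0.08 for GAPDH, which did not pass.

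In all, 7 of the 15 glycolytic enzymes rose with mutant KDM5A over empty vector after scaling, while under quantile normalization 6 of these 7 lay below 0. TPI1, the triose phosphate isomerase, averaged 858.5 ± 81.2 with mutant KDM5A and 643 ± 16.3 with empty vector (SD, n = 2 and 3), a difference of 0.41 (limma adjusted p = 0.0179), with -0.08 under quantile normalization. ENO1, the main enolase, stood at 2274 and 2069 with mutant KDM5A and at 1680, 1628 and 1706 with empty vector in knockout cells, a difference of 0.38 (limma adjusted p = 0.0105), with -0.21 under quantile normalization. PGAM1, a phosphoglycerate mutase, differed by 0.37 (limma adjusted p = 0.0104), with 0.03 unscaled and 0.01 under quantile normalization, and it passed in neither of these. PKM, the pyruvate kinase that makes pyruvate and ATP, stood at 1458 and 1298 against 1071, 1081 and 1097, a difference of 0.35 (limma adjusted p = 0.0119), with -0.22 under quantile normalization. GPI, which makes fructose phosphate from glucose phosphate, differed by 0.31 (limma adjusted p = 0.00714), with -0.03 both unscaled and under quantile normalization. ALDOA, the main aldolase, differed by 0.28 (limma adjusted p = 0.0195), with -0.06 unscaled and -0.30 under quantile normalization.

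Each of these 7 enzymes had 2 mutant-KDM5A libraries above 3 empty-vector libraries with no overlap. Library 1 was the higher of the 2 in each case, and without it GAPDH, TPI1, ENO1, PGAM1, PKM and ALDOA no longer passed, with differences of 0.46, 0.32, 0.31, 0.30, 0.26 and 0.22, while GPI still did. ALDOA was lost without any 1 of the empty-vector libraries and TPI1 without library 2 or 3 of them. Pseudogenes named for GAPDH (60 loci) and TPI1 (4 loci) summed to at most 0.62% and 3.58% of the gene's own value. Genes on the opposite strand overlap TPI1 (SPSB2), ENO1 (ENO1-AS1), GAPDH and ALDOA, and with the strand setting not given in the sources used here their reads cannot be told apart. The other 8 enzymes, which include the phosphofructokinases PFKL, PFKM and PFKP and the hexokinases HK1 and HK2, did not pass and lay between -0.12 and 0.16.

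At a level of at least 300, the rise was close to that of abundant genes in general in this comparison. At a level of at least 100, the genes described here passed as higher more often and had a higher median than the other genes. Neither contrast was tested. Among other nuclear protein-coding genes with a mean level of at least 300, 69.7% of 390 passed as higher with mutant KDM5A, with a median of 0.37, and of the 11 genes described here at that level 8 passed as higher, with a median of 0.31. At a level of at least 100 these were 43.4% of 1520 genes, with a median of 0.20, and 10 of 15 with a median of 0.29. When the protein-coding share was added to the fit, none of the 39 genes passed, and 138 of all genes did. The differences themselves moved unevenly. TPI1 went from 0.41 to 0.18 and GAPDH from 0.51 to 0.32. NDRG1 stayed at 0.38, BHLHE40 went from -0.29 to -0.27 and VEGFA from -0.35 to -0.50. A call lost in this fit is therefore not always a smaller difference. The make-up of these libraries and the mutant plasmid cannot be told apart, since both mutant-KDM5A libraries had the lower share.

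**Figure D2:**
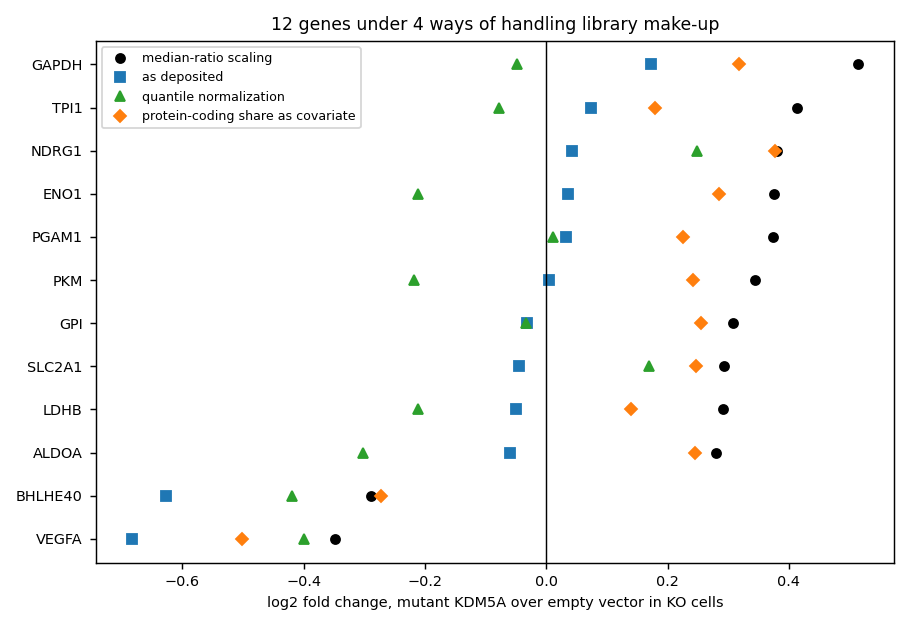
Log2 fold change of mutant KDM5A over empty vector in knockout cells (horizontal axis) for the 12 genes that passed, under median-ratio scaling, with the values as deposited, under quantile normalization, and with the protein-coding share as a covariate. The 10 genes above 0 after median-ratio scaling spread to both sides of 0 with the other scalings (GAPDH 0.51 and -0.05), while VEGFA and BHLHE40 stay below 0 in all 4.

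Knockout cells differed from parental cells in other enzymes, with ENO2, HK1, ALDOC and PFKM falling and none of the 15 rising. ENO2, the neuronal enolase (chr12:6913745-6923698, plus strand), stood at 29.3, 29.4 and 28.6 in empty-vector knockout libraries and at 43.7 and 45.6 in parental libraries. It remained at 27.5 and 26.0 with mutant KDM5A and at 28.3, 29.3 and 28.5 with wild-type KDM5A, so no knockout library reached the parental level. ENO2 fell by 0.60 ± 0.06 on the log2 scale in knockout cells (SE, n = 3 and 2, limma adjusted p = 0.000934), a ratio of means of 0.65, and it passed under every alternative that was run. The coding gene LRRC23 overlaps the ENO2 locus on the same strand, so some of these reads could come from either gene.

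HK1, the hexokinase bound to mitochondria, averaged 36.3 ± 1.17 in knockout cells and 47.3 ± 2.46 in parental cells (SD, n = 3 and 2, log2 difference -0.37, limma adjusted p = 0.0256). ALDOC, the aldolase of brain, averaged 57.9 ± 2.61 in knockout cells and 73.4 ± 0.30 in parental cells (log2 difference -0.34, limma adjusted p = 0.024). PFKM, the muscle phosphofructokinase subunit, averaged 67.8 ± 1.74 in knockout cells and 85.3 ± 5.51 in parental cells (log2 difference -0.33, limma adjusted p = 0.0285). The knockout and parental libraries did not overlap for any of these 3 genes, yet each call was lost with the values as deposited and without either parental library (highest adjusted p 0.0882, 0.102 and 0.0993 over libraries left out in turn). Without the 3 libraries of lower protein-coding share ENO2 passed and HK1, ALDOC and PFKM did not. The 11 other enzymes did not pass and lay between -0.14 and 0.14. Coding genes also overlap the loci of PFKM (SENP1) and ALDOC, and reads from these overlaps may not be told apart.

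Set against the sister gene of the same step, these enzymes also took a smaller share in knockout cells. ENO2 made up 1.71%, 1.77% and 1.65% of the sum of ENO1 and ENO2, without ENO3, in empty-vector knockout libraries and 2.59% and 2.47% in parental libraries. For HK1 the share of HK1 and HK2 averaged 62.1% ± 0.85 in knockout cells and 70.2% ± 1.21 in parental cells (SD, n = 3 and 2). For PFKM the share of the 3 phosphofructokinases averaged 21.0% ± 0.49 in knockout cells and 24.9% ± 0.61 in parental cells. For ALDOC the share of ALDOA and ALDOC averaged 2.58% ± 0.13 in knockout cells and 3.36% ± 0.08 in parental cells. LDHA, the lactate dehydrogenase subunit typical of lactate-making tissue, went the other way, with 39.7%, 41.0% and 39.7% of LDHA and LDHB in knockout cells and 34.2% and 32.1% in parental cells. A share within a library is the same with the values as deposited and after division by 1 factor per library, and shares under quantile normalization were not computed. In all 5 cases the groups did not overlap, and the exact two-sided permutation p was 0.1, the smallest that 3 against 2 libraries allow. By level, 42.4% of all genes did not overlap in this comparison. ENO2, HK1, ALDOC and PFKM had already passed as lower in these same libraries, so their smaller shares are no separate evidence. Shares within the glucose transporters, the lactate transporters and the HIF alpha subunits were not tested.

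Among knockout cells the ENO2 share was 1.19% and 1.24% with mutant KDM5A, 1.60%, 1.53% and 1.50% with wild-type KDM5A, and, as above, 1.65% to 1.77% with empty vector, in 3 groups that did not overlap. The exact two-sided permutation p was 0.1 for each plasmid against empty vector, the smallest either design allows. The sum leaves out ENO3, which was about as abundant as ENO2 in empty-vector knockout libraries and is given below. With mutant KDM5A over empty vector ENO2 itself lay at -0.12, which did not pass (limma adjusted p = 0.193, n = 2 and 3). ENO1 lay at 0.38 there after scaling and at -0.21 under quantile normalization. By level, 46.9% of all genes did not overlap with mutant KDM5A over empty vector, and 32.6% did not with wild-type KDM5A. The HK1 share overlapped empty vector with either plasmid (exact two-sided permutation p = 0.7 with mutant and 0.5 with wild-type KDM5A), as did the ALDOC share with mutant KDM5A (p = 0.3, exact permutation test) and the PFKM share with wild-type KDM5A (p = 0.8, exact permutation test). The ALDOC share with wild-type KDM5A and the PFKM share with mutant KDM5A lay below empty vector without overlap (exact permutation p = 0.1 each). The LDHA share was 38.5% ± 1.06 with mutant KDM5A and 38.95% ± 0.49 with wild-type KDM5A (SD, n = 2 and 3), and 40.1% ± 0.71 with empty vector (n = 3), also with an exact two-sided permutation p of 0.1 for each plasmid. All these knockout shares of LDHA stayed above both parental values.

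**Figure D3:**
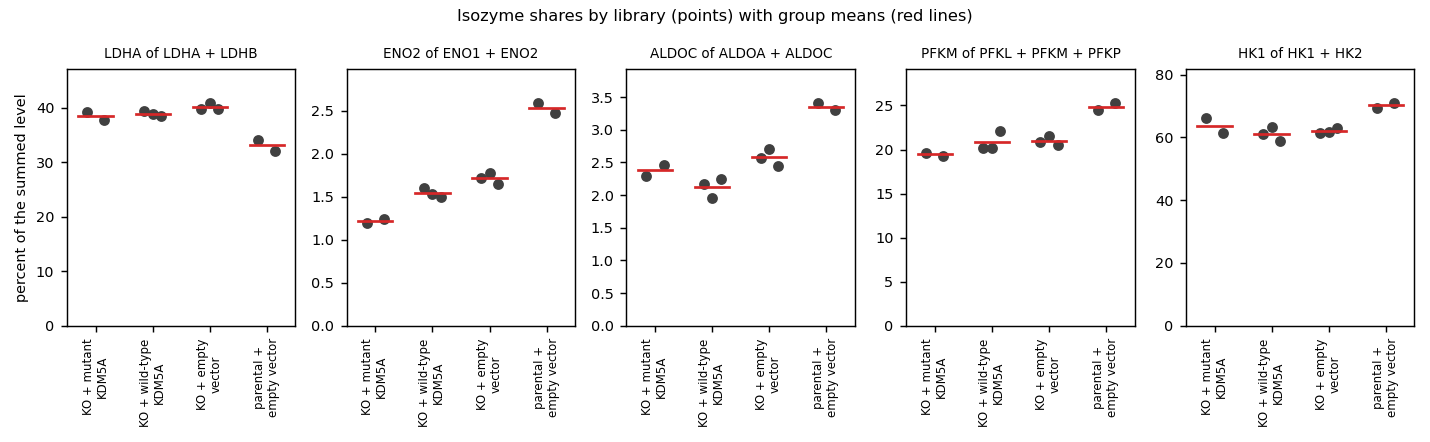
Share of 1 gene in the summed scaled level of the genes named above each panel (vertical axis, percent) in each library (points), with group means (red lines), from left to right in each panel mutant KDM5A, wild-type KDM5A and empty vector in knockout cells, and parental cells. LDHA is lowest in the parental libraries, at 34.2% and 32.1%, while ENO2, ALDOC, PFKM and HK1 are highest there.

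PFKFB3 and PFKFB4, which set the level of an activator of phosphofructokinase, did not pass in any comparison. PFKFB3 ranged over 26.5 to 41.9 in the 10 libraries and PFKFB4 over 8.02 to 10.2, and the groups overlapped in each comparison for both.

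Of the 5 genes of pyruvate and lactate handling, 1 passed. LDHB, the lactate dehydrogenase subunit of heart, stood at 995 and 925 with mutant KDM5A, 799, 831 and 840 with wild-type KDM5A, 825, 741 and 786 with empty vector in knockout cells, and 869 and 1000 in parental cells. It rose by 0.29 ± 0.07 with mutant KDM5A over empty vector (SE, n = 2 and 3, limma adjusted p = 0.0308), while it lay at -0.05 unscaled and at -0.21 under quantile normalization, and the call was lost without any 1 of 5 libraries. LDHA averaged 602 ± 57.9 with mutant KDM5A, 525 ± 4.09 with wild-type KDM5A, 525 ± 16.0 with empty vector in knockout cells and 462 ± 15.2 in parental cells, and no difference passed after median-ratio scaling. LDHA passed as higher in knockout over parental cells with the values as deposited, under quantile normalization, without either mutant-KDM5A library and without the 3 libraries of lower protein-coding share. With mutant KDM5A over empty vector it passed as lower under quantile normalization and as higher without mutant-KDM5A library 2.

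The monocarboxylate transporters SLC16A1 (MCT1) and SLC16A3 (MCT4) carry lactate across the membrane. Both were lower with mutant KDM5A over empty vector, without passing in the fit of all 10 libraries after median-ratio scaling. SLC16A3 passed as lower with the values as deposited and under quantile normalization. SLC16A1 did so with the values as deposited and with only the libraries compared. SLC16A3 stood at 326 and 387 with mutant KDM5A and at 401, 436 and 435 with empty vector in knockout cells. SLC16A1 stood at 62.0 and 59.2 with mutant KDM5A, 83.6, 81.6 and 99.3 with wild-type KDM5A, 76.0, 85.1 and 74.0 with empty vector in knockout cells, and 67.5 and 52.3 in parental cells. The mutant-KDM5A libraries lay below all other knockout libraries, with -0.36 ± 0.12 against empty vector (limma adjusted p = 0.0701, n = 2 and 3) and -0.53 ± 0.12 against wild-type KDM5A (limma adjusted p = 0.0937, n = 2 and 3). PDK1, a kinase that shuts off pyruvate dehydrogenase, was at 4.98, 5.37 and 4.36 with wild-type KDM5A and at 8.08, 6.67 and 6.95 with empty vector, groups that did not overlap, with a log2 difference of -0.48 that missed the threshold (limma adjusted p = 0.0726, n = 3 each).

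The HIF alpha subunits and the prolyl hydroxylases did not pass in any of the 4 comparisons in limma after median-ratio scaling, and at an unadjusted p under 0.05 EGLN3 was lower with wild-type KDM5A over empty vector and in knockout over parental cells, and HIF1A was lower with mutant KDM5A over empty vector (25.7% of all genes had such a p in knockout over parental cells and 32.2% with mutant KDM5A). HIF1A stood at 95.1 and 80.3 with mutant KDM5A, 89.8, 97.3 and 91.0 with wild-type KDM5A, 99.8, 97.3 and 101.6 with empty vector in knockout cells, and 92.6 and 93.0 in parental cells. The largest of its differences was that of mutant KDM5A over empty vector, -0.19 ± 0.07 (limma adjusted p = 0.117, n = 2 and 3). This difference passed as lower with the values as deposited, under quantile normalization and without mutant-KDM5A library 1, and HIF1A was also called lower with mutant than with wild-type KDM5A as deposited. EPAS1, the HIF-2 alpha subunit, ranged from 24.0 to 29.1 over the 10 libraries, and HIF1A made up 76.5% to 79.2% of the sum of both subunits in the group means. EGLN1, the main oxygen-sensing hydroxylase, ranged from 11.7 to 18.0. EGLN3, itself a HIF target, stood at 3.73 and 2.86 with mutant KDM5A, 3.12, 2.92 and 2.69 with wild-type KDM5A, 4.58, 4.59 and 3.28 with empty vector in knockout cells, and 5.32 and 6.21 in parental cells. Parental libraries were the highest for EGLN3, and knockout over parental cells gave -0.40 ± 0.17, which did not pass (limma adjusted p = 0.169, n = 3 and 2). HIF proteins are controlled mainly by degradation, which RNA levels do not measure.

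Among the 12 other HIF targets, of which 11 were tested, NDRG1, ADM and BHLHE40 rose in at least 1 comparison, and VEGFA and BHLHE40 fell in 1. NDRG1 (chr8:133237171-133302022, minus strand), a cytoplasmic protein induced by low oxygen and other stresses, stood at 148.6 and 123.0 with mutant KDM5A, 130.5, 137.2 and 136.6 with wild-type KDM5A, 102.2, 103.9 and 104.7 with empty vector in knockout cells, and 108.9 and 109.7 in parental cells. Both plasmid groups lay above both empty-vector groups. The difference from empty vector was 0.38 ± 0.07 with mutant KDM5A (SE, n = 2 and 3, limma adjusted p = 0.0121) and 0.38 ± 0.07 with wild-type KDM5A (SE, n = 3 and 3, limma adjusted p = 0.018). The mutant call stood without any 1 library but was lost with the values as deposited (0.04), with only the libraries compared and with the protein-coding share as a covariate, and the wild-type call was lost without any 1 of the 6 libraries compared (adjusted p up to 0.0811). Against parental cells the empty-vector knockout cells were at -0.08, which did not pass.

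ADM, which encodes the vasodilator peptide adrenomedullin (chr11:10304680-10307397, plus strand), stood at 79.5 and 70.1 with mutant KDM5A, 75.2, 70.1 and 75.8 with wild-type KDM5A, 68.3, 66.5 and 68.9 with empty vector in knockout cells, and 46.9 and 46.1 in parental cells. Every knockout library exceeded both parental libraries. ADM rose by 0.54 ± 0.07 in empty-vector knockout over parental cells (SE, n = 3 and 2, limma adjusted p = 0.00242), a ratio of means of 1.46, and passed under every alternative that was run. Neither plasmid moved it past the threshold, with 0.14 for mutant KDM5A and 0.12 for wild-type KDM5A over empty vector.

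BHLHE40, a transcriptional repressor of the clock and hypoxia responses (chr3:4979116-4985323, plus strand), was the one gene of the 40 that passed in opposite directions in the knockout and mutant-KDM5A comparisons. LDHB also differed in opposite directions after scaling, at 0.29 with mutant KDM5A over empty vector and -0.25 in knockout over parental cells. The latter did not pass (limma adjusted p = 0.0731, n = 3 and 2). The level of BHLHE40 was 94.8 and 94.2 with mutant KDM5A, 108.2, 105.2 and 105.9 with wild-type KDM5A, 112.8, 118.0 and 116.4 with empty vector in knockout cells, and 88.8 and 87.4 in parental cells. None of the 4 groups overlapped another, and empty-vector knockout cells were highest. BHLHE40 rose by 0.39 ± 0.05 in knockout over parental cells (SE, n = 3 and 2, limma adjusted p = 0.00194) and passed there under every alternative that was run. It fell by 0.29 ± 0.05 with mutant KDM5A over empty vector (SE, n = 2 and 3, limma adjusted p = 0.00653), below 0 in each scaling, and the call was lost with the protein-coding share as a covariate. The same empty-vector knockout libraries enter both differences. With wild-type KDM5A it lay at -0.12 ± 0.04, which did not pass (limma adjusted p = 0.137, n = 3 each). An antisense gene, BHLHE40-AS1, overlaps this locus, and without a known strand setting reads from the pair cannot be told apart.

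VEGFA, the vascular growth factor (chr6:43770184-43786487, plus strand), stood at 56.9 and 54.4 with mutant KDM5A, 59.5, 57.1 and 63.3 with wild-type KDM5A, 73.9, 71.9 and 67.7 with empty vector in knockout cells, and 68.3 and 78.8 in parental cells. Both plasmid groups lay below the empty-vector knockout libraries. VEGFA fell by 0.35 ± 0.08 with mutant KDM5A over empty vector (SE, n = 2 and 3, limma adjusted p = 0.0178), below 0 in each scaling, and the call was lost without either mutant-KDM5A library or without empty-vector library 2 (highest adjusted p 0.0657). With wild-type KDM5A the difference was -0.24 ± 0.07 (limma adjusted p = 0.0826, n = 3 each). That difference passed in the fit of only the 6 libraries compared, with the values as deposited and without either parental library.

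The remaining HIF targets did not pass in any comparison. ANKRD37, an ankyrin-repeat protein, was at 10.2 and 9.62 with mutant KDM5A and at 8.14, 6.16 and 6.42 with empty vector, a log2 difference of 0.47 (limma adjusted p = 0.072, n = 2 and 3). BNIP3 and BNIP3L, which mark mitochondria for removal, ranged from 14.4 to 17.0 and from 26.4 to 34.0 over the 10 libraries. BNIP3 had 38 named pseudogene loci, whose summed value reached 26.7% of its own, so its level is uncertain. The collagen prolyl hydroxylases P4HA1 and P4HA2, the histone demethylase KDM3A and the oxidase ERO1L, which helps proteins form disulfide bonds, had differences between -0.17 and 0.23 in the 4 comparisons.

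**Figure D4:**
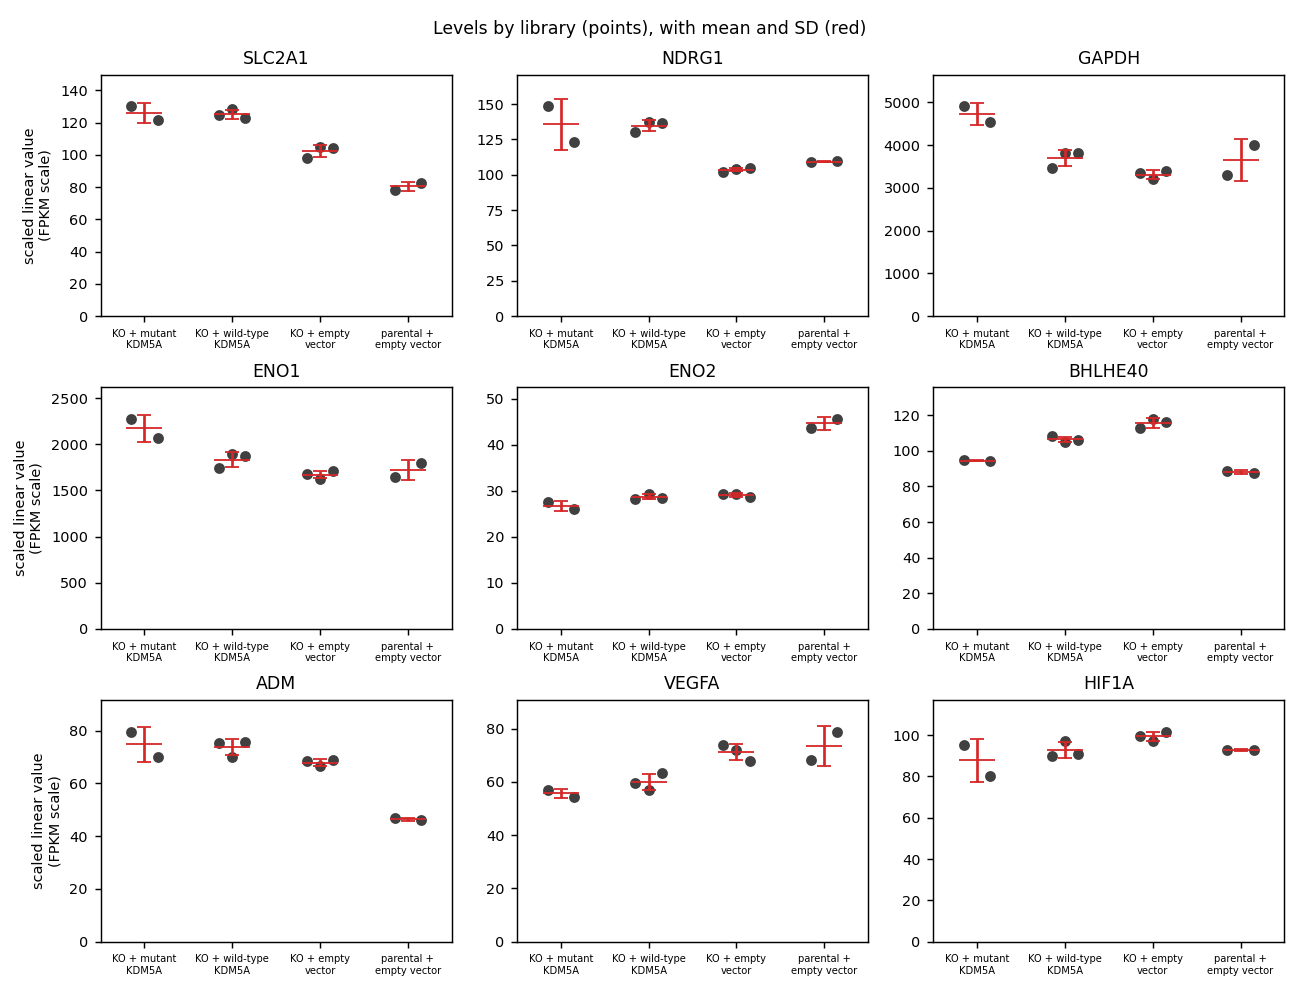
Scaled level on the FPKM scale (vertical axes, from 0) of 9 genes in each library (points) with the group mean and SD (red), from left to right in each panel mutant KDM5A, wild-type KDM5A and empty vector in knockout cells, and parental cells. SLC2A1 steps down towards the parental libraries, ADM is at 46.9 and 46.1 in parental cells against 66.5 or more in every knockout library, and HIF1A overlaps between most groups.

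Mutant and wild-type KDM5A were also compared directly. The mutant-KDM5A libraries held more KDM5A RNA (mean 23081 against 15096) and had a lower protein-coding share. An effect of the mutation therefore cannot be told apart from the amount of plasmid RNA or the make-up of the libraries. None of the 39 genes passed in limma, 15 had an unadjusted p under 0.05, and 20.2% of all genes did. The groups did not overlap for 24 of the 39, or 61.5%, against 38.8% of all genes. GAPDH (0.36), TPI1 (0.33), ALDOC (0.29), PGAM1 (0.28) and ENO1 (0.24) were higher with mutant KDM5A at adjusted p values of 0.0952 to 0.119 in limma, with libraries that did not overlap, and SLC16A1 and BHLHE40 were lower. At a level of at least 300, the median difference was 0.19 for the 11 genes described here and 0.22 for the 390 other protein-coding genes. Without either parental library, which takes no part in the difference itself but in the estimate of spread, 5 genes passed, with GAPDH, PGAM1, TPI1 and SLC2A3 higher and SLC16A1 lower, and 970 of all genes passed in place of 10. With the values as deposited 6 genes passed, all lower with mutant KDM5A (BHLHE40, ENO2, HIF1A, PFKM, SLC16A1 and VEGFA). SLC2A1, ADM and NDRG1 differed by 0.01, 0.02 and 0.00 (SE 0.06, 0.07 and 0.07) between the 2 plasmids.

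**Figure D5:**
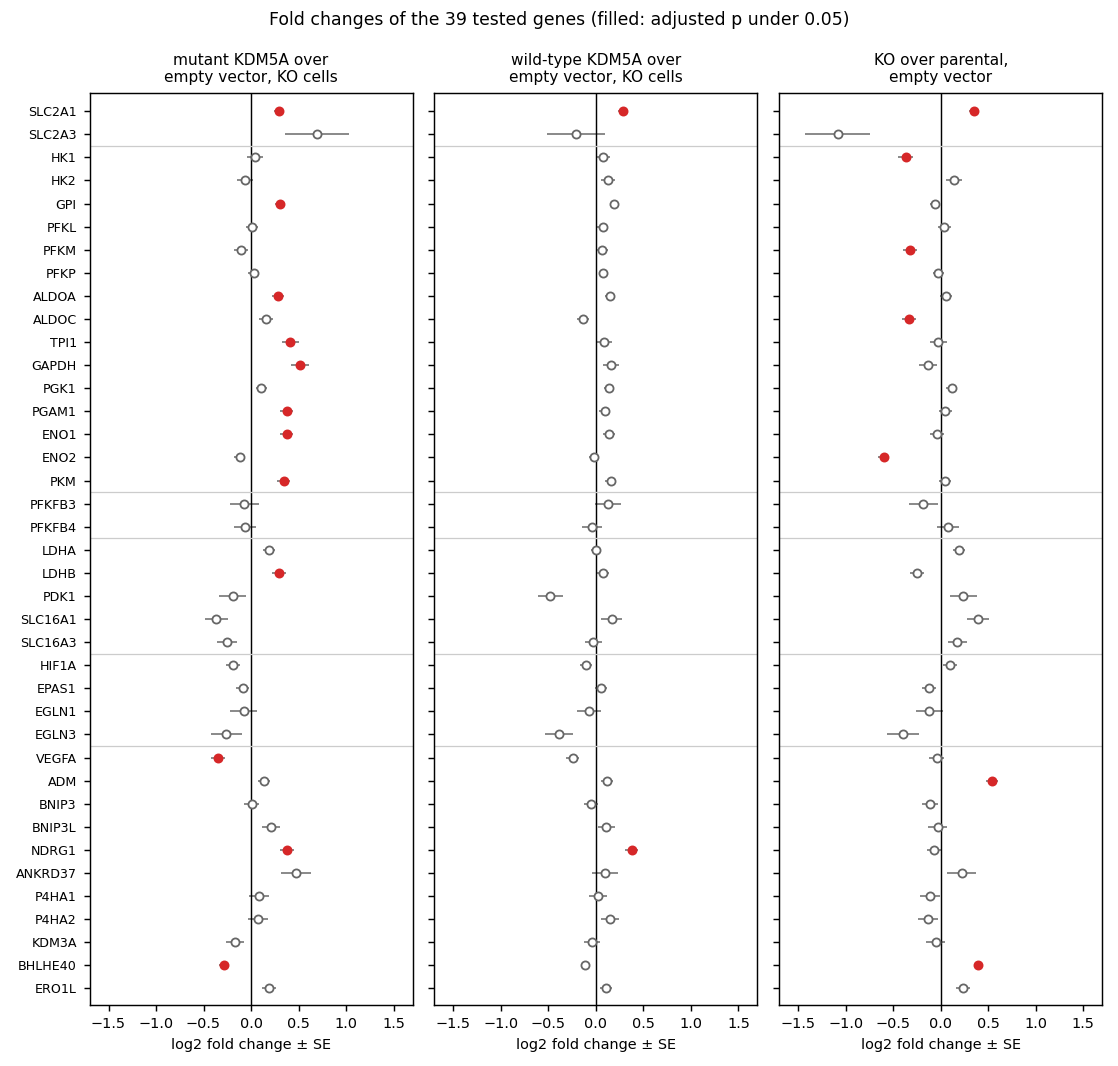
Log2 fold change with its SE (horizontal axes) for the 39 tested genes in order of role, for mutant KDM5A over empty vector, wild-type KDM5A over empty vector and knockout over parental cells, with red points for an adjusted p under 0.05 in limma. Mutant KDM5A has 12 red points after median-ratio scaling, wild-type KDM5A has 2 and knockout over parental cells has 7. Of the 10 mutant-KDM5A red points above 0, only NDRG1 and PGAM1 stay above 0 in every scaling.

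Other genes of the same pathways were counted from lists chosen for their function. Of 10 tested further glycolytic genes, 1 rose and 1 fell with mutant KDM5A, 1 fell with wild-type KDM5A, each over empty vector, and 1 rose in knockout over parental cells, or 20%, 10% and 10% against 16.5%, 4.54% and 8.94% of all genes. HKDC1, a hexokinase-like enzyme, stood at 28.3, 33.6 and 28.0 in empty-vector knockout libraries and at 7.68 and 8.14 in parental libraries. This gap was the largest among the genes of these pathways that are named here, at 1.79 ± 0.10 on the log2 scale (SE, n = 3 and 2, limma adjusted p = 8.13e-05), and HKDC1 remained at 23.5 to 32.3 with either KDM5A plasmid. ENO3, the muscle enolase, stood at 11.3 and 14.1 with mutant KDM5A, 14.5, 13.3 and 13.7 with wild-type KDM5A and 26.9, 24.3 and 26.0 with empty vector, and fell by 0.98 with mutant KDM5A (limma adjusted p = 0.00243, n = 2 and 3). BPGM, which makes the effector of haemoglobin from a glycolytic intermediate, averaged 14.9 ± 3.30 with mutant KDM5A and 9.95 ± 0.79 with empty vector (limma adjusted p = 0.0259, n = 2 and 3), a call that was lost without mutant-KDM5A library 1. ADPGK, a glucokinase that uses ADP, did not pass in knockout over parental cells (0.34, limma adjusted p = 0.0656, n = 3 and 2).

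Of 12 tested further sugar, lactate and pyruvate carriers, 2 rose and 1 fell with mutant KDM5A, 1 rose with wild-type KDM5A, and 2 fell in knockout over parental cells, or 25.0%, 8.33% and 16.7% against 16.5%, 4.54% and 8.94% of all genes. BSG, the chaperone that brings MCT1 and MCT4 to the membrane, stood at 806 and 803 with mutant KDM5A and at 616, 637 and 632 with empty vector, a rise of 0.36 (limma adjusted p = 0.00536, n = 2 and 3) that was -0.15 under quantile normalization. MPC1, a subunit of the mitochondrial pyruvate carrier, averaged 32.6 ± 4.15 with mutant KDM5A and 19.5 ± 0.71 with empty vector (limma adjusted p = 0.00976, n = 2 and 3) and was lost without mutant-KDM5A library 1. SLC2A11, a fructose and glucose transporter, fell to 7.33, 6.60 and 8.37 in empty-vector knockout libraries, against 14.1 and 14.7 in parental libraries, a difference of -0.87 (limma adjusted p = 0.0044, n = 3 and 2). SLC2A8 was at 10.3 and 9.97 with mutant KDM5A and 15.8, 15.6 and 15.5 with wild-type KDM5A and did not pass (limma adjusted p = 0.0673, n = 2 and 3).

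Of 11 genes for the entry of pyruvate into mitochondrial oxidation, 1 rose and 1 fell with mutant KDM5A, 1 fell with wild-type KDM5A, and 2 fell in knockout over parental cells, or 18.2%, 9.09% and 18.2% against 16.5%, 4.54% and 8.94% of all genes. PDP1, the phosphatase that switches pyruvate dehydrogenase on, stood at 347.1, 341.9 and 352.9 in empty-vector knockout libraries and at 453.9 and 445.2 in parental libraries, a fall of 0.37 (-0.37 on the log2 scale, limma adjusted p = 0.00245, n = 3 and 2). PDK2, a pyruvate dehydrogenase kinase, averaged 27.5 ± 2.16 with mutant KDM5A and 19.2 ± 0.57 with empty vector (limma adjusted p = 0.00946, n = 2 and 3), and was lost without mutant-KDM5A library 1. PDK3 in knockout over parental cells and PDP2 with wild-type KDM5A over empty vector did not pass.

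Of 13 tested regulators of HIF, 2 rose and 2 fell with mutant KDM5A, none passed in limma with wild-type KDM5A (4 at an unadjusted p under 0.05, which 20.5% of all genes reached), and 2 rose and 1 fell in knockout over parental cells. These are 30.8% with mutant KDM5A and 23.1% in knockout over parental cells, against 16.5% and 8.94% of all genes. TCEB2 and TCEB1, the elongin subunits of the ligase that degrades HIF alpha, averaged 351 ± 11.9 and 252 ± 16.0 with mutant KDM5A and 221 ± 16.9 and 192 ± 13.8 with empty vector (SD, n = 2 and 3, limma adjusted p = 0.00587 and 0.0109). For TCEB1 the call was lost with the values as deposited and under quantile normalization. CREBBP and EP300, acetyltransferases that HIF recruits, were higher in knockout cells. CREBBP stood at 39.2, 39.4 and 41.4 in empty-vector knockout libraries and at 31.2 and 29.1 in parental libraries (limma adjusted p = 0.0187, n = 3 and 2). EP300 stood at 33.7, 38.7 and 39.8 in empty-vector knockout libraries and at 29.5 and 28.5 in parental libraries (limma adjusted p = 0.0254, n = 3 and 2), and both calls were lost without knockout empty-vector library 2 or 3 or parental library 2. No gene of these 4 lists passed between mutant and wild-type KDM5A in limma. At an unadjusted p under 0.05 there were 9, or 1 of 10, 5 of 12, 1 of 11 and 2 of 13 in the order of the lists. Of all genes 20.2% reached such a p.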

How the data were processed

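Per the labels, RNA of sorted cells was taken with Trizol and sequenced on an Illumina instrument of 1 of 2 models, with no record of the model per library. Per the submitters' processing notes the tools were STAR 2.7.1a, Picard, GATK 4.1.2 and Cufflinks 2.2.1 with GRCh38, while their order, the annotation release and the strand setting are not given in the sources used here. The authors deposited 1 table per library, with log2 FPKM values at 60141 loci. These values behave as log2 of a value plus 1 whose linear form sums to 999975 to 1000008 in every library, so they are FPKM brought to the same sum in each library. No counts were used, the depth is unknown, and no counting interval can be given.

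Linear values were summed by symbol and divided by a median-ratio factor from the 13651 genes that reached 1 throughout. The 17779 genes that reached a scaled 1 in 2 or more libraries were tested with limma 3.58.1 in R 4.3.3 (trend) on log2(scaled value + 1), in 1 two-sided fit of 10 libraries in 4 groups, with 6 residual and 2.99 prior degrees of freedom. Such fold changes understate those of low genes. Python 3.11.15, numpy 2.4.6, pandas 2.3.3 and matplotlib 3.10.9 did the rest, and the fit was tested on simulated data.

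Loci were matched to GENCODE 29 (56197 loci, 93.4%) for gene type, with starts in the files counted from 0 and printed here from 1. The 40 genes, their roles and the further lists were chosen with earlier results of these data known. All 40 genes are described, tests are given where a gene passed or for contrast, and of each further list up to 4 genes of smallest p are named, except some genes and counts that are not reported here. Values given for contrast, and the statement of which genes overlapped, were chosen after their values were seen. Other settings tried were quantile normalization or no scaling, a pseudocount of 0.1, a mean of at least 5 or no filter on low values, a fit per pair of groups, a replicate block, the protein-coding share as a covariate, the highest locus per symbol, and leaving out each library. Leaving out the 3 libraries of lower protein-coding share was chosen after seeing the data.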

Additional observations from a re-analysis of the deposited data

How the results depend on the processing

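Alternatives were followed gene by gene for the passing genes among the 39 and for some passing genes of the further lists. Direction held for the 3 such genes with wild-type KDM5A over empty vector and for the 16 in knockout over parental cells, under every alternative run. With mutant KDM5A over empty vector it turned for several of 22. With the values as deposited SLC2A1 lay at -0.044, GPI at -0.0325, ALDOA at -0.060, LDHB at -0.049 and PGD at -0.095. Under quantile normalization GPI lay at -0.033, ALDOA at -0.30, TPI1 at -0.078, GAPDH at -0.048, ENO1 at -0.21, PKM at -0.22, LDHB at -0.21, BSG at -0.15 and PGD at -0.0041. The cause was not tested.

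The number of the 39 genes that passed moved with the setting. With wild-type KDM5A over empty vector it was 2, and it was 1 with the values as deposited, 6 with only the libraries compared or without the 3 libraries of lower protein-coding share, and 0 to 4 with a library left out. With mutant KDM5A over empty vector it was 12, and it was 19 as deposited (1 higher, 18 lower), 9 under quantile normalization (1 higher, 8 lower), 0 with the covariate and 4 to 14 with a library left out. Between mutant and wild-type KDM5A it was 0, and it was 6 as deposited and 0 to 5 with a library left out. In knockout over parental cells it was 7, and it was 4 with no filter, 3 with only the libraries compared, 5 without the 3 libraries and 4 to 8 with a library left out. ENO2, ADM and BHLHE40 passed there in each of these settings.

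Over all genes, wild-type KDM5A over empty vector gave 807 calls, with 1689 from only the libraries compared, 1690 without the 3 libraries and 178 to 1058 with a library left out. Mutant KDM5A over empty vector gave 2939, with 6608 as deposited (458 higher, 6150 lower, against 1685 and 1254 after scaling), 1838 from only the libraries compared, 138 with the covariate and 1215 to 3466 with a library left out. Mutant over wild-type KDM5A gave 10, with 1490 as deposited (107 higher, 1383 lower), 5 under quantile normalization, 93 with no filter, 3 with a filter at a mean of 5, 214 from only the libraries compared, 1 with the covariate and 5 to 970 with a library left out. Knockout over parental cells gave 1589, with 464 from only the libraries compared, 648 with the covariate, 1047 without the 3 libraries and 685 to 1904 with a library left out.

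The groups share replicate numbers, and libraries of the same number did not deviate together (correlations -0.09 to 0.05). Deviations from the mean of 2 libraries mirror each other, so these correlations cannot decide whether the numbers mark a pairing. The labels do not say what the numbers mean. With the number as a replicate block, 0, 5, 0 and 4 of the 39 genes and 214, 1109, 1 and 556 of all genes passed with wild-type KDM5A over empty vector, with mutant KDM5A over empty vector, between mutant and wild-type KDM5A, and in knockout over parental cells. Where a library left out leaves 1 in its group, that library is assumed to vary like the others. With 2 or 3 libraries a group and no counts, small changes of low genes such as SLC2A3, EGLN3 and PDK1 could not be resolved.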

Other observations

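Genes beside the 40 that HIF is known to regulate, and the pentose phosphate pathway, which branches from glycolysis and makes NADPH and ribose, were also counted. Of 31 tested further HIF targets, 4 rose and 2 fell with mutant KDM5A over empty vector, 2 rose with wild-type KDM5A over empty vector, and 5 rose and 5 fell in knockout over parental cells, or 19.4%, 6.45% and 32.3% against 16.5%, 4.54% and 8.94% of all genes. HMOX1, which breaks down haem, stood at 132.8, 130.5 and 128.6 in empty-vector knockout libraries and at 84.9 and 86.5 in parental libraries, and rose by 0.60 ± 0.05 on the log2 scale (SE, n = 3 and 2, limma adjusted p = 0.000282). All 8 knockout libraries, with or without a KDM5A plasmid, lay above the parental ones for HMOX1. The kinase RIOK3 averaged 87.4 ± 5.82 in knockout cells and 65.7 ± 2.51 in parental cells, and TFRC, the transferrin receptor, averaged 184 ± 4.81 in knockout cells and 144 ± 9.25 in parental cells (SD, n = 3 and 2, limma adjusted p = 0.0078 and 0.00828). Both calls were lost with only the libraries compared.

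Of the 7 pentose phosphate genes, 3 rose with mutant KDM5A and 1, RPIA, with wild-type KDM5A over empty vector, or 42.9% and 14.3% against 16.5% and 4.54% of all genes. RPIA, which makes ribose phosphate, stood at 57.5 and 59.9 with mutant KDM5A and at 42.9, 41.4 and 40.3 with empty vector, a rise of 0.49 ± 0.06 (SE, n = 2 and 3, limma adjusted p = 0.00195). TALDO1 and PGD rose by 0.36 and 0.24 with mutant KDM5A over empty vector after scaling (limma adjusted p = 0.0147 and 0.0301, n = 2 and 3), with PGD below 0 in the other scalings, and both calls were lost without mutant-KDM5A library 1. No gene of these lists passed between mutant and wild-type KDM5A in limma. At an unadjusted p under 0.05 there were 6, with 5 of 31 HIF targets and 1 of 7 pentose phosphate genes. Of all genes 20.2% reached such a p.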
